A study of Homo sapiens with 6 samples.

Results

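H1299, a widely used human non-small-cell lung cancer cell line, was compared here with itself under 2 vectors: one for malin, the protein encoded by NHLRC1, and an empty vector. The comparison used the H1299 library with the malin vector and the H1299 library with the empty vector, 2 of the 6 libraries of the series, and the 8696 of 19903 listed genes whose mean FPKM over these 2 libraries was at least 5. FPKM is the number of sequenced fragments of a gene scaled to the length of its transcript and to the size of the library. The other 4 libraries were malin and empty-vector libraries of A549 and of a line labelled H2030, 1 of each. The malin table of the pair labelled H2030 carries a column header that names another line, of human embryonic kidney origin. Which line that library holds was not settled here, and each value given for the pair carries this limit. In that pair the kidney-development genes SIX2 and SALL1 had 6.28 and 9.9 FPKM with malin and 5.27 and 9.11 FPKM with the empty vector, while in H1299 they had 0.05 and 0 FPKM with malin and 0.14 and 0 FPKM with the empty vector. Both H1299 libraries came from cells at passage 5, with total RNA taken at near-confluence; the labels name neither the promoter that drove malin nor clones or pools. With 1 library per vector there was no replicate, so no p-value or error between cultures can be given, and every ratio below describes these libraries.

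Malin is an E3 ubiquitin ligase with a RING domain and NHL repeats. It works together with laforin, a glycogen phosphatase encoded by EPM2A, to mark proteins of glycogen metabolism for degradation, and loss of either gene causes Lafora disease, in which insoluble glycogen builds up in neurons and other cells. A ligase acts on proteins, so the levels of its targets can change without any change in their messenger RNA, and the values here are RNA only.

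NHLRC1 itself stood at 119.2 FPKM in the malin library and at 2.85 FPKM in the empty-vector library of H1299. The ratio of 41.8 rested on an estimated 2535 and 65 fragments (95% exact binomial interval 32.8 to 54.5, counting error only). Among all listed genes NHLRC1 ranked 617th by level with malin and 10090th with the empty vector. The other lines lay far lower, at 6.82 FPKM with malin and 1.21 FPKM with the empty vector in A549, and at 3.69 and 0.18 FPKM with malin and the empty vector in the pair labelled H2030. The highest malin level of the series was therefore in H1299, and its empty-vector level was also the highest of the 3. Gene-level FPKM does not separate vector from endogenous transcripts.

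**Figure D1:**
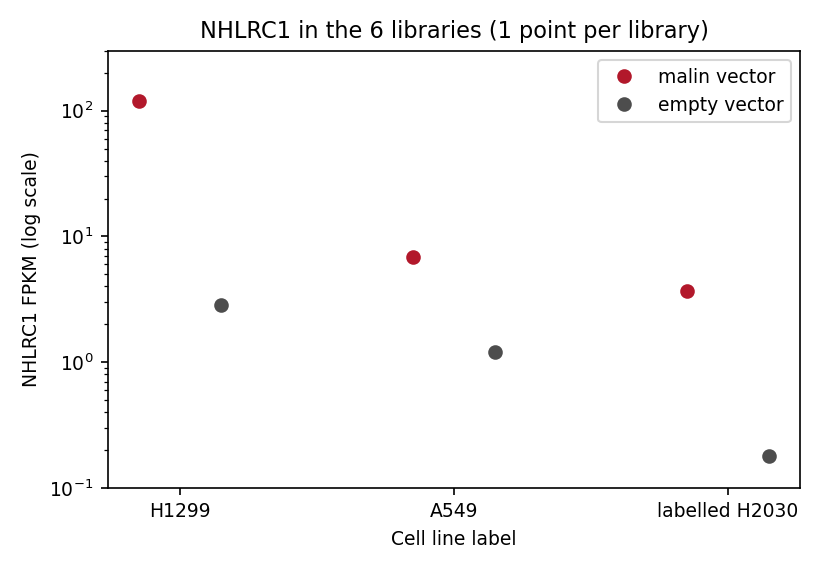
NHLRC1 level in FPKM on a log axis for the malin (left, red) and empty-vector (right, grey) library of each line, 1 point per library. The H1299 malin library, at 119.2 FPKM, lies above every other library, and each malin library lies above the empty-vector library of its line.

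The rest of the transcriptome differed little between the H1299 libraries. On the log2(FPKM + 1) scale used for all ratios here, which understates the change of low genes, Pearson's r across the 8696 genes, which are not independent replicates, was 0.9956, and the log2 ratios of malin over empty vector had an SD of 0.139 and a median of 0.0022. Over the genes at a mean of at least 5 FPKM in each other pair, the SD was 0.162 in A549 (8599 genes) and 0.389 in the pair labelled H2030 (9532 genes). At least 1.2-fold higher with malin were 212 genes (2.44% of those compared), and at least 1.2-fold lower were 125 (1.44%). At least 1.5-fold higher were 13 genes (0.149%) and at least 1.5-fold lower were 10 (0.115%); past 2-fold there were 4 (0.046%) higher and 5 (0.0575%) lower. A ratio above 0 was found for 50.9% of genes and below 0 for 48.7%, so signs were almost evenly split.

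The depth of the libraries limits what a ratio can show. From the spacing of low values, the malin library held an estimated 9900000 fragments and the empty-vector library 10650000, which gives a transcript of 2000 bases at 5 FPKM about 94 and 101 fragments. The spread narrowed with level. At a mean of 5 to 10 FPKM the central 95% of log2 ratios ran from -0.28 to 0.33, at 10 to 20 FPKM from -0.23 to 0.27, at 20 to 50 FPKM from -0.20 to 0.21, at 50 to 100 FPKM from -0.16 to 0.18, and at 100 FPKM or more from -0.11 to 0.13. These bands stand in for a test below: a gene inside the band of its level differed no more than most genes there, and a gene outside it is among the most extreme 5% by construction, whatever the vector did.

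**Figure D2:**
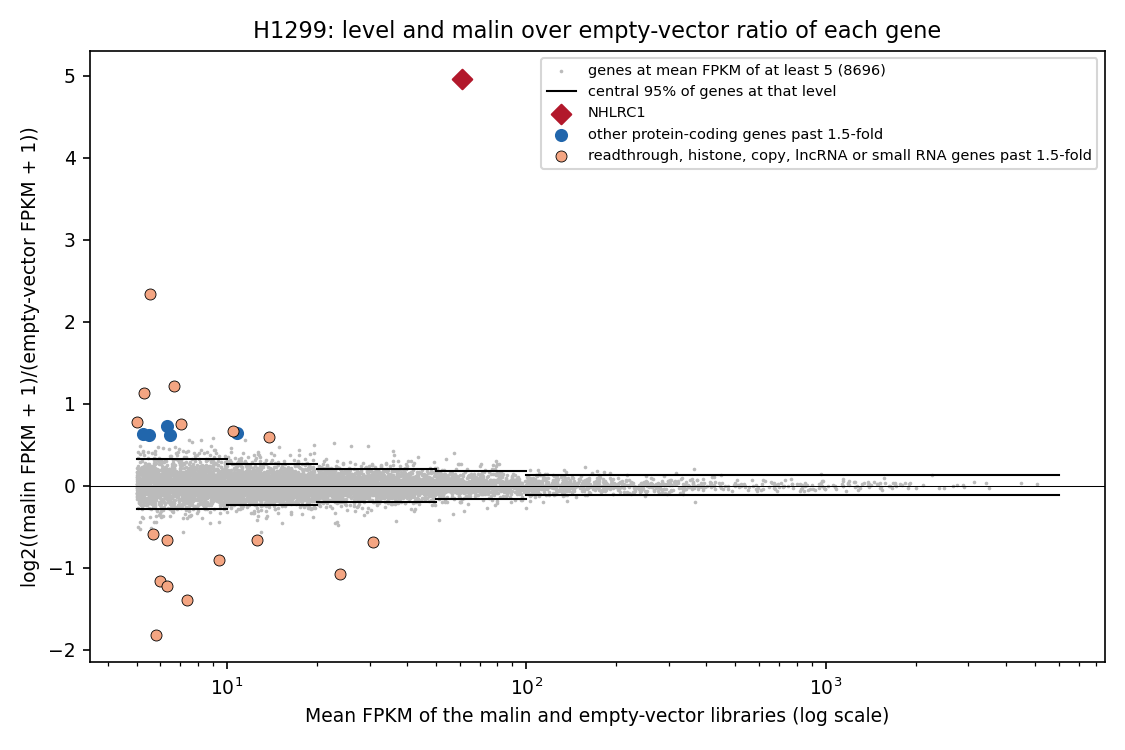
Mean FPKM of each H1299 gene (log axis) against its log2 ratio of malin over empty vector, with black lines at the central 95% of genes in each range of level. NHLRC1 (diamond, 4.96) stands alone, and most other genes past 1.5-fold lie below a mean of 20 FPKM and belong to readthrough, histone, copied or small RNA genes (orange).

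Of the 23 genes past 1.5-fold in either direction, 1 was NHLRC1. A further 4 were readthrough genes, whose annotated transcripts span neighbouring genes, and 5 were classed as near-identical copies. Among these copies, GAGE12I and XAGE1D were placed there because they had no matched gene entry, and their sequences were not compared. Another 3 were histone genes, 4 were small structured RNAs and 1 was a long non-coding RNA. The other 5 were protein-coding genes outside those classes. Sharing of sequence went with large ratios: at least 50% of the 31-base words of the transcripts were also present in another listed gene for 9 of 20 such genes with known transcripts (45.0%), against 9.0% of genes past 1.2-fold and 2.6% of all genes.

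The readthrough genes moved against the genes they overlap. At 3 such loci the sums lay close together, but abundant neighbours made up most of each sum. A close sum there does not show that the changes balanced. On chromosome 6, BLOC1S5, a subunit of the complex that builds lysosome-related organelles, had 7.87 FPKM with malin and 0.40 FPKM with the empty vector. The readthrough gene EEF1E1-MUTED, which contains it, had 2.01 and 9.58 FPKM with malin and the empty vector, and BLOC1S5-TXNDC5 had 3.39 (malin) and 9.23 FPKM (empty vector). Together with TXNDC5 and EEF1E1, the 5 genes of the locus summed to 205.25 FPKM with malin and 196.59 FPKM with the empty vector, a log2 ratio of 0.06. Most of it came from TXNDC5 and EEF1E1, with 119.37 and 72.61 FPKM with malin and 111.96 and 65.42 FPKM with the empty vector. On chromosome 7, C7orf55-LUC7L2 had 3.62 FPKM with malin and 11.15 FPKM with the empty vector, while LUC7L2, which encodes a splicing factor, had 54.16 (malin) and 44.26 FPKM (empty vector) and C7orf55 had 12.43 (malin) and 9.93 FPKM (empty vector). That locus summed to 70.21 FPKM with malin and 65.34 FPKM with the empty vector. On chromosome 11, RBM14-RBM4 had 9.94 FPKM with malin and 1.17 FPKM with the empty vector. The 3 genes there, which include the RNA-binding protein genes RBM4 and RBM14, summed to 99.36 (malin) and 94.05 FPKM (empty vector). RBM4 had 70.6 (malin) and 73.28 FPKM (empty vector), and RBM14 had 18.82 (malin) and 19.6 FPKM (empty vector).

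SULT1A3 and SULT1A4 lie in duplicated segments of chromosome 16 and encode the same catecholamine sulfotransferase. SULT1A3 was listed at 0 FPKM with malin and at 4.10 FPKM with the empty vector, and SULT1A4 had 7.67 FPKM with malin and 2.95 FPKM with the empty vector. Their sum was 7.67 FPKM with malin and 7.05 FPKM with the empty vector. The coding sequences of their GENCODE release 29 transcripts (GRCh38, plus strand, 888 bases each) differed at 0 positions, so a fragment inside them carries no letter that assigns it to one copy; their first 90 bases are shown for that reason, with the start codon in capitals:
SULT1A3: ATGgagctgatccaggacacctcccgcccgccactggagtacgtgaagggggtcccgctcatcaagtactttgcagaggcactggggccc
SULT1A4: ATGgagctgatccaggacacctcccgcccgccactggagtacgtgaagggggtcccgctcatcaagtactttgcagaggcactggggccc

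BOLA2 and BOLA2B, on the same chromosome, encode an iron-sulfur cluster partner of glutaredoxins, and their coding sequences of 459 bases also differed at 0 positions. BOLA2 had 23.31 FPKM with malin and 38.17 FPKM with the empty vector, and BOLA2B had 66.17 (malin) and 54.69 FPKM (empty vector), which sum to 89.48 (malin) and 92.86 FPKM (empty vector). The GTF2H2 copies on chromosome 5 derive from a subunit gene of the transcription and repair factor TFIIH. GTF2H2C had 9.11 FPKM with malin and 4.98 FPKM with the empty vector, and GTF2H2 had 9.99 (malin) and 6.44 FPKM (empty vector). GTF2H2D lay the other way, at 19.71 (malin) and 27.14 FPKM (empty vector), and GTF2H2B had 8.98 (malin) and 8.61 FPKM (empty vector). The 4 copies summed to 47.79 FPKM with malin and 47.17 FPKM with the empty vector, a log2 ratio of 0.02. Without GTF2H2D, which was not in the locus formed around GTF2H2C, the other 3 summed to 28.08 FPKM with malin and 20.03 FPKM with the empty vector, a log2 ratio of 0.47 that lay above the band of its level. The sums of the BLOC1S5, LUC7L2 and RBM4 sets, which rested mostly on abundant members, lay inside the bands of their levels. So did those of the SULT1A, BOLA2 and 4-gene GTF2H2 sets. Outside lay the locus of ZNF695, with 10.61 FPKM with malin and 7.93 FPKM with the empty vector over 3 genes, and that of SNORD3A, whose copies SNORD3B-1 and SNORD3B-2 were listed at 0 FPKM in each library. Whether fragments were divided differently among copies in the 2 libraries was not tested. The sums over all 4 GTF2H2 copies and over the cancer-testis families below were formed after the single values were seen.

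**Figure D3:**
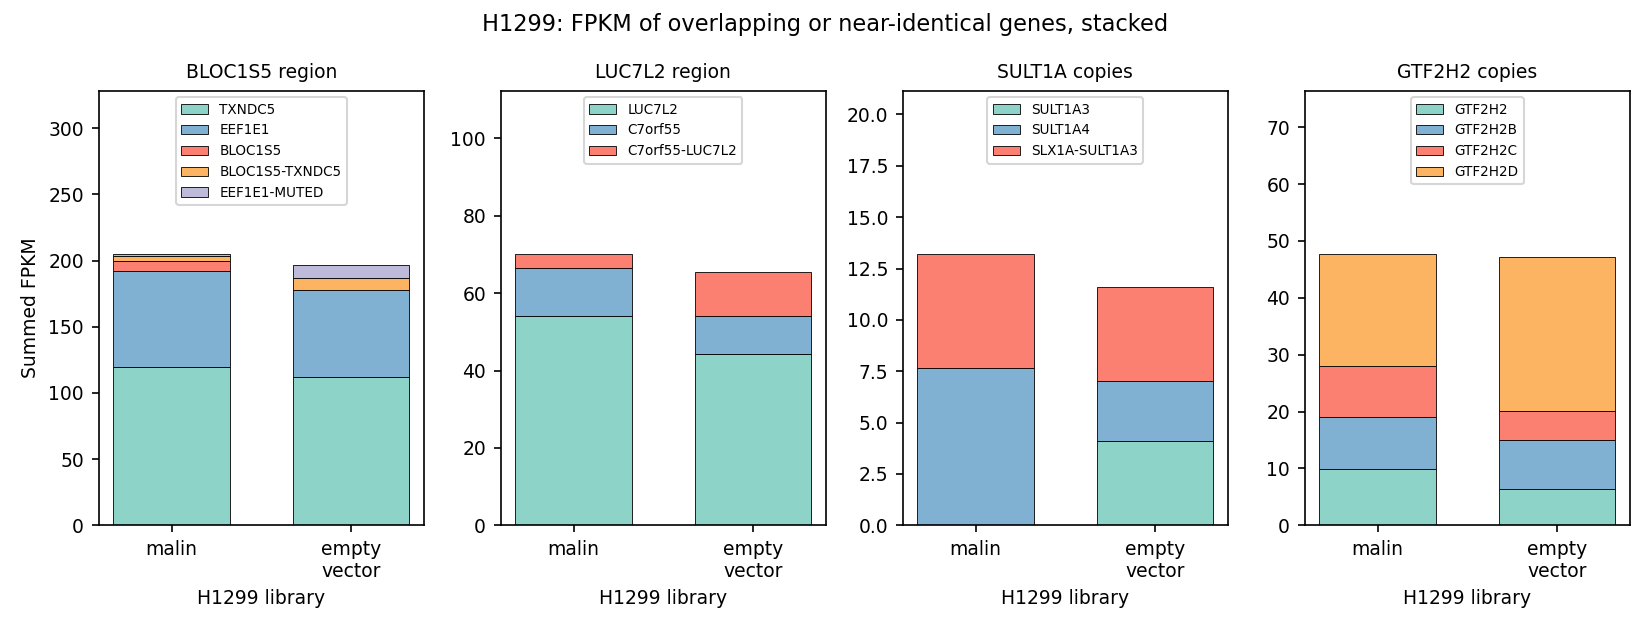
Stacked FPKM of overlapping or near-identical genes in the malin (left bar) and empty-vector (right bar) library of H1299. GTF2H2C is larger and GTF2H2D smaller with malin, and the 4 GTF2H2 copies sum to 47.79 FPKM with malin and 47.17 FPKM with the empty vector.

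The small structured RNAs past 1.5-fold split evenly by direction. SNORD17, a C/D box small nucleolar RNA on chromosome 20, had 9.73 FPKM with malin and 3.60 FPKM with the empty vector, and SNORD3A, the U3 RNA that guides ribosomal RNA cleavage, had 16.9 (malin) and 10.87 FPKM (empty vector). RMRP, the RNA of the RNase MRP enzyme, had 6.28 FPKM with malin and 12.59 FPKM with the empty vector, and SCARNA12, which lies inside PHB2, had 4.33 (malin) and 7.02 FPKM (empty vector). SNHG10, a long non-coding host RNA of a small nucleolar RNA, was lower, at 9.54 FPKM with malin and 15.7 FPKM with the empty vector. The log2 ratios of SNORD17 were 0.43 in A549 and 1.66 in the pair labelled H2030, and those of RMRP were -1.15 and -0.33. SNORD3A had 0.24 in A549 and -0.32 in the pair labelled H2030, and SCARNA12 had 0.07 and 0.90.

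Histone genes of the replication-dependent kind, whose messages typically, though not always, end in a stem-loop in place of a poly(A) tail, also lay on either side. With malin and the empty vector, HIST1H3H had 6.61 and 3.43 FPKM, HIST1H3G had 6.45 and 3.99 FPKM, and HIST1H2BD had 27.04 and 18.6 FPKM. On the other side, HIST1H2BH had 3.32 FPKM with malin and 8.66 FPKM with the empty vector, and HIST1H2BJ had 4.67 (malin) and 7.93 FPKM (empty vector). Of the 12 members at a mean of 5 FPKM or more, 6 were higher and 6 lower, with a median log2 ratio of 0.028, and the most abundant, HIST1H2BK, had 213.95 FPKM with malin and 205.6 FPKM with the empty vector. The list thus had wide single values and a median close to that of all genes.

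The 5 protein-coding genes outside these classes were all higher with malin and all expressed at a low level. TSTD1, which encodes a small thiosulfate sulfurtransferase, had 8.15 FPKM with malin and 4.53 FPKM with the empty vector. CTHRC1, a secreted collagen triple helix repeat protein, had 13.37 (malin) and 8.20 FPKM (empty vector). IGFBP6, a secreted protein that binds insulin-like growth factors, had 8.06 (malin) and 4.92 FPKM (empty vector), and TMEM117, a membrane protein, had 6.61 (malin) and 3.91 FPKM (empty vector). ZNF695, a zinc finger gene that shares transcripts with ZNF670-ZNF695, had 6.88 FPKM with malin and 4.15 FPKM with the empty vector. Their log2 ratios were 0.61 to 0.73, outside the band of their level. In the other lines CTHRC1 was near 0 FPKM, IGFBP6 had negative log2 ratios (-0.27 in A549 and -0.74 in the pair labelled H2030), TSTD1 had ratios of -0.11 and 0.23, and TMEM117 had ratios of 0.46 and 0.10.

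At a mean of 20 FPKM or more, where ratios are steadier, only NHLRC1 was at least 1.5-fold higher, and 2 genes, BOLA2 and XAGE1D, were at least 1.5-fold lower. HIST1H2BD, at a log2 ratio of 0.52, came next among all genes at that level. Histone, readthrough and identical-protein genes are left out of the ranking that follows. Its highest gene after NHLRC1 was CSAG3, a cancer-testis gene, with 34.75 FPKM with malin and 24.46 FPKM with the empty vector. CHCHD10, a protein of the mitochondrial intermembrane space, had 30.39 (malin) and 21.44 FPKM (empty vector), COX7B2, a testis form of a cytochrome c oxidase subunit, had 41.25 (malin) and 30.53 FPKM (empty vector), NDUFA2, a complex I subunit, had 60.14 (malin) and 47.85 FPKM (empty vector), and MPV17, a mitochondrial inner membrane protein, had 39.79 (malin) and 31.99 FPKM (empty vector). Of the 48 members of the respiratory list, 28 were higher and 20 lower, with a median log2 ratio of 0.016 and 1 member past 1.2-fold. Others of the 12 were the centrin gene CETN3 (49.03 FPKM with malin and 38.28 FPKM with the empty vector), SRPX, a sushi repeat protein gene (23.99 FPKM with malin and 18.96 FPKM with the empty vector), the ribosomal RNA gene RNA5-8S5 (41.41 FPKM with malin and 33.3 FPKM with the empty vector), HEXA and PGLS, which are described with their lists.

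Among the 12 lowest at this level, PLAC8, a small cysteine-rich protein gene, had 19.53 FPKM with malin and 27.65 FPKM with the empty vector. CYB5A, which encodes cytochrome b5, an electron donor to desaturases and cytochrome P450 enzymes, had 19.25 (malin) and 26.84 FPKM (empty vector), and its log2 ratio of -0.46 stood beside -0.49 in A549 and 0.01 in the pair labelled H2030. LINC00152, a long non-coding RNA, had 43.69 FPKM with malin and 58.7 FPKM with the empty vector, and RN7SL2, a signal recognition particle RNA with near-identical copies, had 31.16 (malin) and 42.26 FPKM (empty vector). DPM3, a subunit of the enzyme that makes the mannose donor of the endoplasmic reticulum, had 25.07 (malin) and 32.45 FPKM (empty vector), and EXOSC5, an RNA exosome subunit, had 55.05 (malin) and 68.55 FPKM (empty vector). COA6, a cytochrome c oxidase assembly factor, had 37.64 (malin) and 46.87 FPKM (empty vector), and ZNF593, a zinc finger gene, had 23.91 (malin) and 29.75 FPKM (empty vector). XAGE1D, GTF2H2D, LINC00493 (20.3 FPKM with malin and 25.84 FPKM with the empty vector) and C12orf45 (26.05 FPKM with malin and 32.7 FPKM with the empty vector) completed the set.

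For genes at a mean of 100 FPKM or more, the extremes were picked after their values were seen. The highest ratios were those of HSPB1, the small heat shock protein HSP27, with 169.38 FPKM with malin and 144.19 FPKM with the empty vector, and SCD, the stearoyl-CoA desaturase that makes monounsaturated fatty acids, with 390.78 (malin) and 338.15 FPKM (empty vector). The tetraspanin gene CD9 had 110.18 (malin) and 96.2 FPKM (empty vector). On the other side, ID1, an inhibitor of basic helix-loop-helix factors, had 105.96 (malin) and 121.46 FPKM (empty vector), PCNA, the replication clamp, had 128.07 (malin) and 146.23 FPKM (empty vector), and LSM7, a subunit of an Sm-like RNA-binding ring, had 96.62 (malin) and 109.9 FPKM (empty vector). All of the abundant genes named here lay outside the band of their level.

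Glycogen genes, the pathway in which malin acts, lay at the same level in both libraries. Of the 6 measured synthesis genes, 3 were higher and 3 lower, with a median log2 ratio of -0.005 and 0 past 1.2-fold. GYS1, the muscle-type glycogen synthase, had 7.53 FPKM with malin and 7.51 FPKM with the empty vector, GBE1, the branching enzyme, had 19.35 (malin) and 19.53 FPKM (empty vector), and GYG1, the glycogenin primer, had 68.03 (malin) and 68.71 FPKM (empty vector). The 7 breakdown genes had a median of -0.009, with PYGB, the brain-type phosphorylase, at 38.81 (malin) and 38.83 FPKM (empty vector). PYGL, the liver-type phosphorylase, had the widest difference, 29.12 FPKM with malin and 25.72 FPKM with the empty vector, a log2 ratio of 0.17 inside the band of its level. None of these genes left that band.

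Malin's partners were expressed at a low level. EPM2A had 3.96 FPKM with malin and 4.24 FPKM with the empty vector, below the level at which genes were compared. Among the subunits that target protein phosphatase 1 to glycogen, PPP1R3B had 6.64 (malin) and 6.80 FPKM (empty vector), PPP1R3C, which is a reported malin target, had 2.19 (malin) and 2.27 FPKM (empty vector), and PPP1R3D had 1.76 (malin) and 2.43 FPKM (empty vector). The catalytic subunits PPP1CA (104.17 FPKM with malin and 96.98 FPKM with the empty vector), PPP1CB (38.88 FPKM with malin and 35.22 FPKM with the empty vector) and PPP1CC (118.35 FPKM with malin and 116.47 FPKM with the empty vector) were each slightly higher and inside their bands. Related NHL-repeat genes also stayed close: NHLRC2 had 5.38 (malin) and 4.67 FPKM (empty vector), NHLRC3 had 4.26 (malin) and 4.28 FPKM (empty vector), and TRIM32, another NHL-repeat ubiquitin ligase, had 8.66 (malin) and 9.22 FPKM (empty vector). The 25 measured genes of ubiquitin conjugation had a median log2 ratio of -0.006 and the 31 proteasome subunits one of -0.012, with 0 members past 1.2-fold in either list.

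Of 45 gene lists with at least 5 measured members, markers aside, 43 are summarised; the cancer-testis list is described apart and 1 list is not reported here. Across the 43, medians ran from -0.084 to 0.089, against 0.0022 for all genes, and in 28 lists no member passed 1.2-fold. Of the 43, 2 lists had a median past 1.05-fold: cholesterol synthesis on the higher side, and YAP and TAZ targets on the lower. The counts of higher and lower members in every list stand beside 50.9% and 48.7% of all genes. Members outside their bands stand beside the 5% of all genes that lie outside by construction.

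**Figure D4:**
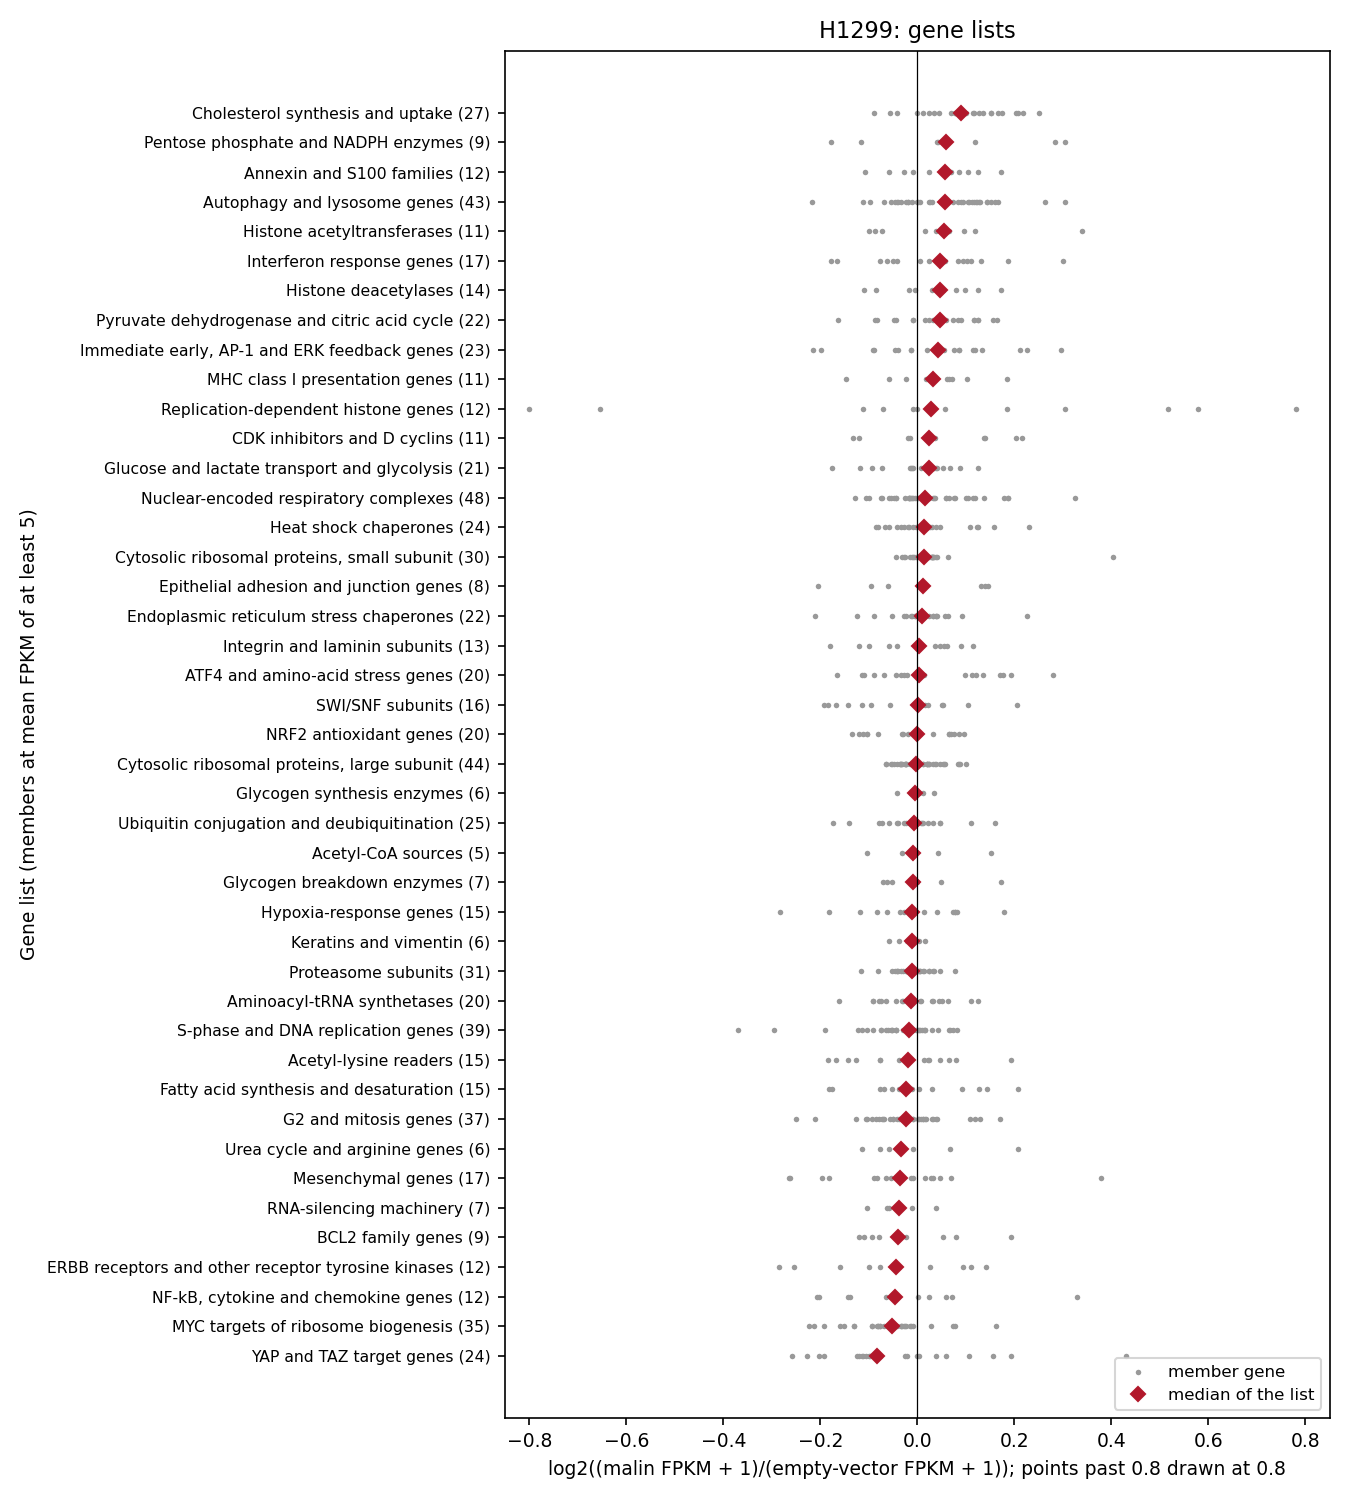
Log2 ratio of malin over empty vector in H1299 for each measured member (grey) and the median (red) of the 43 gene lists summarised, with the number of members in brackets. Medians lie between -0.084 and 0.089, and single members of the histone list lie farthest from 0.

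Cholesterol synthesis genes were slightly but mostly higher with malin. Cells make cholesterol from acetyl-CoA through HMG-CoA and squalene, and the factor SREBP2, encoded by SREBF2, induces the enzymes of this route when sterols in the endoplasmic reticulum are low. Of the 27 measured genes, 23 were higher and 3 lower (50.9% and 48.7% of all genes), with a median log2 ratio of 0.089 and 0 past 1.2-fold. EBP, a sterol isomerase, had 51.26 FPKM with malin and 43.96 FPKM with the empty vector and was the only member above the band of its level. TM7SF2, a sterol reductase, had 7.78 (malin) and 6.38 FPKM (empty vector). INSIG1, which holds SREBP2 in the endoplasmic reticulum, had 41.77 (malin) and 36.03 FPKM (empty vector). DHCR7, the last enzyme of one branch, had 39.8 (malin) and 35.15 FPKM (empty vector), and SREBF2 had 34.17 (malin) and 31.2 FPKM (empty vector). Below 0 were SCAP, the escort protein of SREBP2 (15.42 FPKM with malin and 16.48 FPKM with the empty vector), MVK and LBR. Members of a pathway are induced together and are not independent of each other, so the split of signs is a description.

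SREBP2 is known to bind sterol regulatory elements in promoters. The letters TCACCCCAC, a known core form of this element, were searched on both strands in the 250 bases before each gene start listed by RefSeq (GRCh38.p14). They were in 1 of 21 list genes that had such a window, SREBF2 itself, against 0.429% of the 7228 compared genes with a window (31 genes) and 0.362% of all 35116 windows. The SREBF2 window, at chr22:41832855-41833104 on the plus strand, is shown because it was that single match, with the letters in capitals 133 bases before the gene start:
SREBF2: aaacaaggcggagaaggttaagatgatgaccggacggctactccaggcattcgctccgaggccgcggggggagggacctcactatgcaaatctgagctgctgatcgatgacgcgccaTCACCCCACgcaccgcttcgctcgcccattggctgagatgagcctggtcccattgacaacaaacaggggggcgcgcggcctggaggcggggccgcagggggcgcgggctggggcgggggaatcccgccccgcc
The match is a description of the letters, and the other 20 windows may hold other forms of the element.

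Neighbouring lipid genes did not follow as a group. Of the 15 fatty acid synthesis and desaturation genes, 6 were higher and 9 lower, with a median of -0.024. SREBF1 had 45.64 FPKM with malin and 41.22 FPKM with the empty vector and FADS1, a desaturase, had 37.5 (malin) and 34.25 FPKM (empty vector), while ELOVL6, an elongase, had 17.87 (malin) and 20.31 FPKM (empty vector). The pentose phosphate and NADPH enzymes included PGLS, a lactonase of the oxidative branch, which lay above its band at 44.53 (malin) and 35.85 FPKM (empty vector). PGD, of the same branch, had 139.17 (malin) and 128.18 FPKM (empty vector), whereas RPIA and RPE, of the non-oxidative branch, had 17.81 and 32.28 FPKM with malin and 20.26 and 35.1 FPKM with the empty vector. Over the 9 enzymes 7 were higher and 2 lower, with a median of 0.058, and 2 passed 1.2-fold. Glycolysis and glucose transport, with 21 measured genes, had a median of 0.023 and 0 past 1.2-fold; GAPDH had 4562.37 and 4456.37 FPKM with malin and the empty vector.

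Autophagy and lysosome genes are of interest because undegraded glycogen is cleared in lysosomes. They had 29 of 43 members higher and 14 lower (50.9% and 48.7% of all genes), with a median log2 ratio of 0.056. HEXA, the alpha subunit of the lysosomal hexosaminidase, had 23.38 FPKM with malin and 18.74 FPKM with the empty vector and was the only member outside the band of its level. WIPI1, an autophagosome protein, had 7.95 (malin) and 6.46 FPKM (empty vector), SQSTM1, the autophagy receptor p62, had 341.64 (malin) and 320.04 FPKM (empty vector), and MAP1LC3A had 7.81 (malin) and 9.24 FPKM (empty vector). GAA, the lysosomal glucosidase that degrades glycogen, had 11.46 FPKM with malin and 11.05 FPKM with the empty vector.

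MYC-driven ribosome biogenesis genes were shifted the other way by a smaller amount. Of 35 members, 31 were lower and 4 higher with malin (48.7% and 50.9% of all genes), with a median log2 ratio of -0.052 and 0 past 1.2-fold. The lowest were PPAN, a large-subunit assembly factor, with 22.89 FPKM with malin and 26.88 FPKM with the empty vector, UTP20, with 11.08 (malin) and 13 FPKM (empty vector), and LYAR, a nucleolar regulator, with 83.03 (malin) and 95.06 FPKM (empty vector). The RNA polymerase I subunit genes POLR1A, POLR1B and POLR1C had 14.68, 17.56 and 35.77 FPKM with malin and 15.72, 18.79 and 40.09 FPKM with the empty vector. NCL, nucleolin, had 539.46 (malin) and 559.42 FPKM (empty vector) and NPM1, nucleophosmin, had 2375.34 (malin) and 2419.18 FPKM (empty vector). MYC itself had 82.92 FPKM with malin and 83.66 FPKM with the empty vector, and FBL, fibrillarin, lay above 0 at 583.98 (malin) and 555.19 FPKM (empty vector). PPAN and LYAR alone lay outside their bands. The ribosomal proteins themselves were centred near 0, with medians of -0.002 for 44 large-subunit and 0.013 for 30 small-subunit genes.

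S-phase genes had 26 of 39 members lower and 13 higher (48.7% and 50.9% of all genes), with a median of -0.017. POLE2, a subunit of DNA polymerase epsilon, had 10.96 FPKM with malin and 14.46 FPKM with the empty vector, and RFC3, a subunit of the clamp loader, had 27.05 (malin) and 33.42 FPKM (empty vector); these and PCNA lay below their bands. The helicase genes MCM2 to MCM7 were nearly level, for instance MCM7 at 304.59 (malin) and 316.39 FPKM (empty vector) and MCM3 at 75.58 (malin) and 76.3 FPKM (empty vector). Among 37 G2 and mitosis genes the median was -0.024, with MKI67, the proliferation marker Ki-67, at 36.51 FPKM with malin and 42.43 FPKM with the empty vector, CENPF at 24.9 (malin) and 29.81 FPKM (empty vector), and UBE2C, an anaphase ubiquitin-conjugating enzyme, at 192.91 (malin) and 171.3 FPKM (empty vector). Of these, MKI67 and CENPF lay below their bands and UBE2C above its band. Among inhibitors of cyclin-dependent kinases, CDKN1A was nearly level, at 32.38 (malin) and 32.0 FPKM (empty vector). CDKN2A had 67.9 (malin) and 58.87 FPKM (empty vector) and lay above its band.

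YAP and TAZ targets were mostly lower with malin. These co-activators respond to cell density and tension and drive genes of growth and matrix through TEAD factors. Of 24 members, 16 were lower and 7 higher (48.7% and 50.9% of all genes), with a median log2 ratio of -0.084. The 1 member past 1.2-fold, IGFBP3, was higher with malin. The standard reporters CTGF and CYR61 had 55.96 and 151.46 FPKM with malin, against 64.5 and 163.84 FPKM with the empty vector. ANKRD1 had 16.37 FPKM with malin and 19.77 FPKM with the empty vector, and TEAD4 had 39.35 (malin) and 45.09 FPKM (empty vector). YAP1 had 44.45 FPKM in each library and WWTR1, which encodes TAZ, had 34.52 (malin) and 33.11 FPKM (empty vector). Some targets lay on the other side: IGFBP3 had 6.76 FPKM with malin and 4.76 FPKM with the empty vector, and NT5E, the surface enzyme CD73, had 200.64 (malin) and 180.09 FPKM (empty vector). CTGF, CYR61 and ANKRD1 lay below their bands, and IGFBP3 and NT5E above them.

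**Figure D5:**
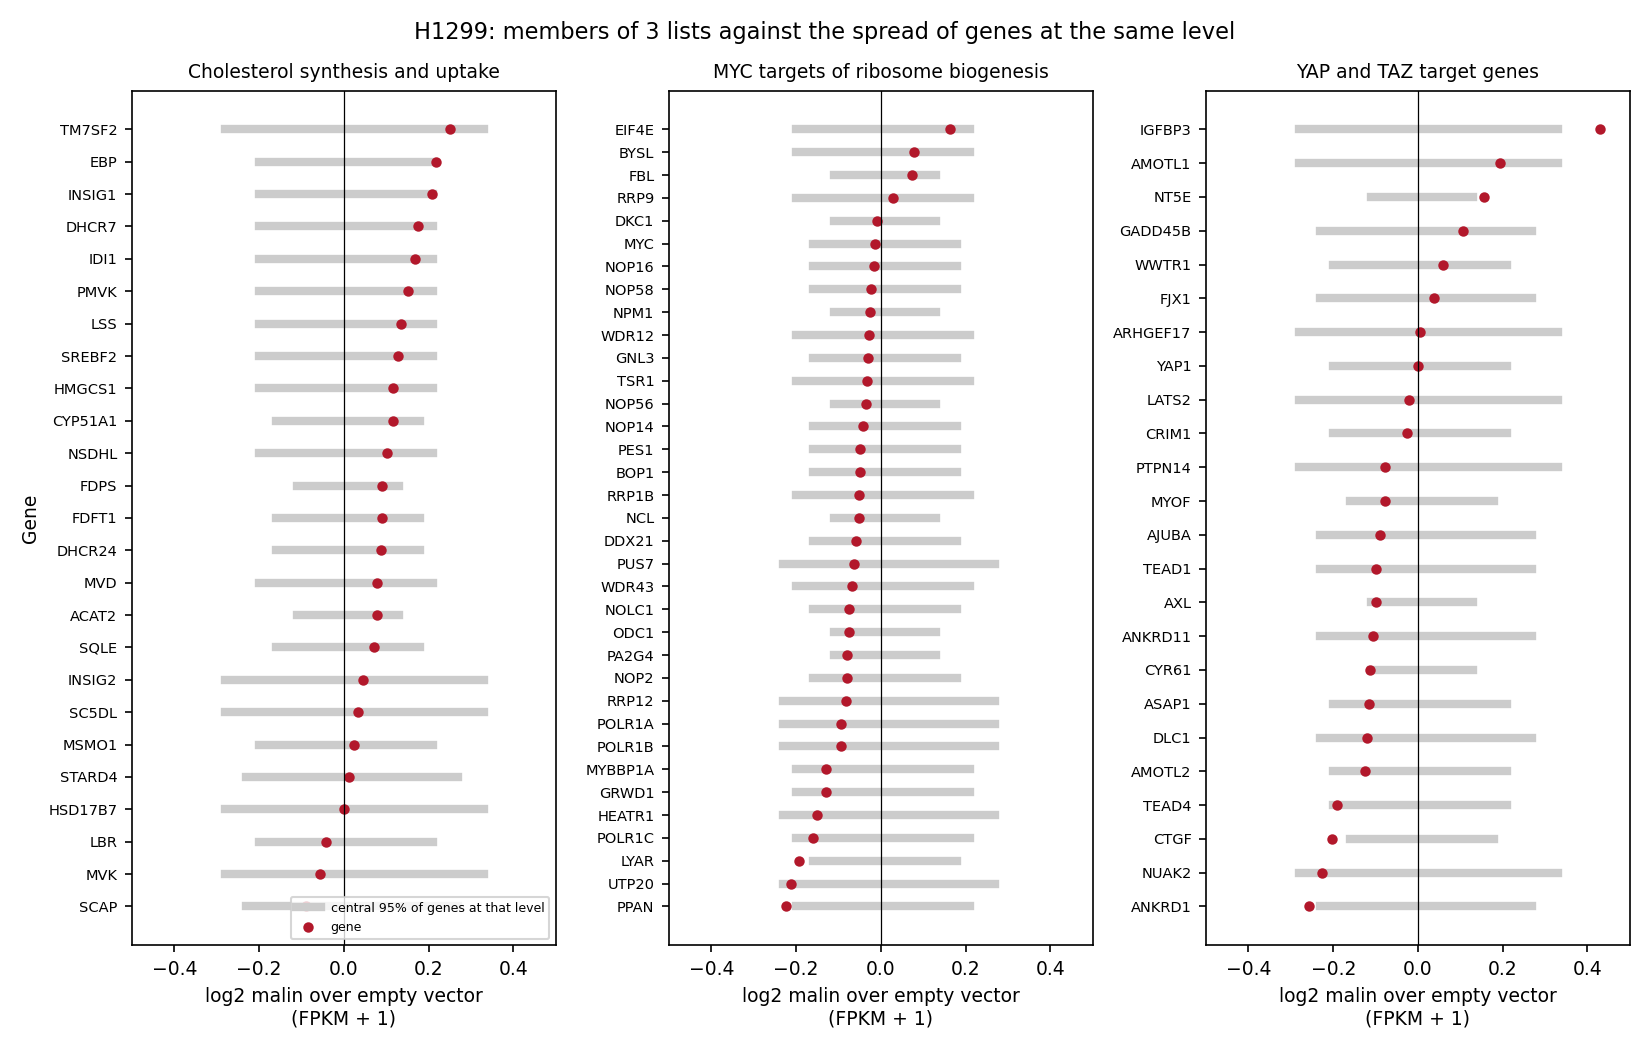
Log2 ratio of malin over empty vector in H1299 for measured members (red points) of the cholesterol, ribosome biogenesis and YAP and TAZ lists, over the central 95% of genes at the same level (grey bars). Most points lie inside the bars; EBP lies above its bar, PPAN and LYAR lie below theirs, and the YAP and TAZ list has members outside on both sides.

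The mesenchymal list, with 17 measured genes, had a median of -0.036, 11 members lower and 6 higher. MYL9, a myosin light chain of contractile cells, had 24.77 FPKM with malin and 29.91 FPKM with the empty vector and lay below its band, while SERPINE2, a protease inhibitor, lay above it at 18.59 (malin) and 14.07 FPKM (empty vector). VIM, the intermediate filament vimentin, had 1905.39 (malin) and 1884.95 FPKM (empty vector). Among receptor tyrosine kinases and their ligands, EGFR had 8.10 FPKM with malin and 10.09 FPKM with the empty vector, below its band, NRG1, an ERBB ligand, had 5.42 (malin) and 6.66 FPKM (empty vector), and AXL had 285.63 (malin) and 305.91 FPKM (empty vector). The 12 members had a median of -0.045, with 8 lower and 4 higher.

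Malin has been linked to histone acetylation through the supply of acetyl-CoA from nuclear glycogen, so the writers and erasers of that mark were listed. Of 11 histone acetyltransferase genes 8 were higher and 3 lower, with a median of 0.055. KAT8, the H4K16 acetyltransferase MOF, had 12.57 FPKM with malin and 9.73 FPKM with the empty vector, the only member past 1.2-fold and outside its band, whereas CREBBP had 7.61 (malin) and 8.22 FPKM (empty vector) and KAT5 had 12.03 (malin) and 12.85 FPKM (empty vector). The 14 deacetylases had a median of 0.046, with HDAC1 at 97.49 (malin) and 92.18 FPKM (empty vector) and SIRT6 at 11.56 (malin) and 12.55 FPKM (empty vector). Of acetyl-CoA sources, ACLY, ATP-citrate lyase, had 65.98 FPKM with malin and 64.07 FPKM with the empty vector, and ACSS2, acetyl-CoA synthetase, had 12.65 (malin) and 11.29 FPKM (empty vector). The 22 genes of pyruvate dehydrogenase and the citric acid cycle had a median of 0.046 and 0 past 1.2-fold.

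Stress programmes had medians close to 0. Heat shock chaperones (24 genes) had a median of 0.013, chaperones of the endoplasmic reticulum (22 genes) 0.010, ATF4 and amino-acid genes (20 genes) 0.003, and NRF2 targets (20 genes) -0.001, with a combined single member past 1.2-fold, DDIT4 (12 FPKM with malin and 9.71 FPKM with the empty vector), an inhibitor of mTOR signalling that is counted in the ATF4 list. The 17 interferon genes had a median of 0.047. Among them IFI6 alone passed 1.2-fold, at 11.2 (malin) and 8.9 FPKM (empty vector), and ISG15 had 45.11 (malin) and 41.7 FPKM (empty vector). The 12 NF-kB and cytokine genes had a median of -0.047. Among them LIF had 9.61 (malin) and 7.44 FPKM (empty vector) and BIRC3 had 28.68 (malin) and 33.15 FPKM (empty vector).

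The labelled cell type was checked against defining genes. VIM was abundant and CDH1, epithelial cadherin, was listed at 0 and 0.02 FPKM with malin and the empty vector; TM4SF1 had 297.01 (malin) and 292.28 FPKM (empty vector). Of 13 lung lineage genes, 11 were below 3 FPKM in each library, the exceptions being LPCAT1 (17.08 FPKM with malin and 16.28 FPKM with the empty vector) and GATA6 (7.5 FPKM with malin and 7.23 FPKM with the empty vector), and NKX2-1 had 0.60 (malin) and 0.77 FPKM (empty vector). Of the 13 immune markers analysed, CD68 had 53.25 FPKM with malin and 45.69 FPKM with the empty vector and the other 12 were below 3 FPKM, PTPRC at 0.07 FPKM in each. The 9 fibroblast markers summed to 2.94 (malin) and 1.70 FPKM (empty vector), the 11 endothelial markers to 4.10 (malin) and 4.34 FPKM (empty vector) and the 4 erythroid markers to 0.21 (malin) and 0.19 FPKM (empty vector). The 12 kidney-development and neurofilament genes summed to 69.67 FPKM with malin and 67.68 FPKM with the empty vector, most of it from INA, a neuronal filament gene, at 41.95 (malin) and 43.68 FPKM (empty vector).

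Cancer-testis antigens, germline genes that many tumours switch on, were listed after values were seen. The 16 GAGE genes summed to 4153.25 FPKM with malin and 4034.78 FPKM with the empty vector in H1299, but to 1.24 (malin) and 1.67 FPKM (empty vector) in A549 and to 1.3 (malin) and 3.08 FPKM (empty vector) in the pair labelled H2030. Single GAGE copies varied both ways, GAGE12I with 13.12 FPKM with malin and 7.88 FPKM with the empty vector and GAGE5 with 339.75 (malin) and 391.25 FPKM (empty vector). XAGE1D had 15 (malin) and 32.82 FPKM (empty vector), although the 5 XAGE1 genes, which include 4 with equal values, summed to 557.72 FPKM with malin and 550.66 FPKM with the empty vector. In A549 the XAGE1 sum was 150.2 (malin) and 122.48 FPKM (empty vector), and in the pair labelled H2030 it was 0.2 (malin) and 0.32 FPKM (empty vector). MAGEA4, of another family, had 500.23 (malin) and 492.89 FPKM (empty vector).

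Transcript length moved with the ratios. Among the 961 genes whose longest transcript reached 7000 bases, 62.4% were lower with malin and the median log2 ratio was -0.030, against 44.4% to 45.3% lower and medians of 0.011 to 0.013 in the classes below 4000 bases. In A549 the median of that long class, made of the same genes chosen by their level in H1299, was 0.024, on the other side. The YAP and TAZ list had a median longest transcript of 4884 bases, the ribosome biogenesis list one of 3079 and the cholesterol list one of 3180. The part of length in the list medians was not tested.

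The share of H1299 differences past 1.2-fold that recurred in A549 lay slightly above that of all genes compared in both lines, and rested on few genes. Within A549 itself 4.07% of compared genes were at least 1.2-fold higher with malin and 3.88% at least 1.2-fold lower, and in the pair labelled H2030 19.3% and 24.2%. Of 145 genes at least 1.2-fold higher with malin in H1299 that were also compared in A549, 8 were at least 1.2-fold higher there (5.52%, and 2.83% of the 283 in A549), where 3.7% of the genes compared in both lines were. For lower genes the overlap was 4 of 85 (4.71%, and 1.79% of 223), with 2.91% of those genes. The lower genes in both lines were CYB5A, C7orf55-LUC7L2, DHRS4 and POLE2, and the higher ones included SERPINE2, SULT1A4 and C12orf57. Of these, SULT1A4 has an identical copy and C7orf55-LUC7L2 is a readthrough gene. In A549, SULT1A3 and SULT1A4 summed to 17.17 FPKM with malin and 18.26 FPKM with the empty vector. The C7orf55-LUC7L2 locus had a log2 ratio of sums of -0.03 there. With the pair labelled H2030, 23.8% of the higher genes and 23.7% of the lower ones recurred, where 18.9% and 23.2% of all genes were past 1.2-fold. List medians in the other lines were taken over the members compared in H1299, whatever their level there. The cholesterol median was -0.004 in A549 and 0.439 in the pair labelled H2030, that of ribosome biogenesis was 0.014 and 0.104, and that of YAP and TAZ targets was 0.186 and -0.328.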

How the data were processed

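RNA was sequenced in 6 libraries, of which the H1299 pair is reported. The deposited values are FPKM, as the authors named them in the headers. Per the submitters' processing notes the tools were STAR, Cufflinks, cutadapt and FastQC on hg38, without versions; the use of strand was not given in the sources used. Pairs followed the cell line and vector labels, with 1 library per group. Log2((malin + 1)/(empty vector + 1)) was computed for genes averaging at least 5 FPKM, with no test. FPKM depends on the library total, and fragments of overlapping or copied genes can be divided differently between libraries. Fragment numbers are estimates: low values of transcripts of 600 to 2000 bases, times the length less 100 bases, were fitted by multiples of a step chosen on the same values, and 75.7% to 79.3% of them fell within 0.2 of an integer (40% by chance). Gene types, positions and promoters came from RefSeq (GRCh38.p14, 19770 of 19903 genes matched) and transcripts from GENCODE release 29 (99.2% of compared genes). The depth estimate and fold counts were tested on simulated data.

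The members and gene lists were chosen with earlier results of these data known. Named genes were NHLRC1 and EPM2A, all genes past 1.5-fold, the 12 highest and 12 lowest at a mean of at least 20 FPKM outside histone, readthrough and identical-protein genes, members of lists by size of ratio, loci of named genes, and CDH1, VIM and TM4SF1; further members of described lists are given by role. Genes described at 100 FPKM or more and the cancer-testis list were chosen after values were seen. Results for some genes chosen this way are left out of the text. Alternatives were pseudocounts of 0.1 and 5, other filters, 2 scalings and restricted gene classes. The work used Python (3.11.15) with Biopython (1.88), matplotlib (3.10.9), scipy (1.17.1), pandas (2.3.3) and numpy (2.4.6).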

Additional observations from a re-analysis of the deposited data

Results flagged for a closer look

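YAP and TAZ targets had medians on opposite sides of 0 in 2 lines, each past 1.05-fold: a log2 ratio of malin over empty vector of -0.084 in H1299 and of 0.186 in A549. In the pair labelled H2030 the median was -0.328, below 0 as in H1299. Each of these medians was taken over the members at a mean of at least 5 FPKM in the H1299 pair, whatever their level in the other lines. In A549, CTGF had 15.95 FPKM with malin and 10.82 FPKM with the empty vector, CYR61 had 39.71 (malin) and 27.19 FPKM (empty vector), and AXL had 95.42 (malin) and 63.7 FPKM (empty vector), where each was lower with malin in H1299. The difference between the lines was not tested, since each line had 1 library per vector. Groups of 1 library allow no check for a sample far from the others.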

How the results depend on the processing

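No paired analysis was possible because each group held 1 library, and no library could be left out. The NHLRC1 log2 ratio was 4.96, and 5.34 and 3.98 with pseudocounts of 0.1 and 5. Counts of genes depended mostly on the filter. Genes at least 1.5-fold higher and lower numbered 56 and 34 at a mean FPKM of at least 1, 1 and 2 at a mean of at least 20, 116 and 70 with no filter, and 8 and 4 without histone, readthrough and identical-protein genes; with a pseudocount of 5 there were 4 higher, and among protein-coding genes 4 lower. Genes at least 1.2-fold higher and lower numbered 609 and 348 at a mean of at least 1, 30 and 23 at a mean of at least 20, 1021 and 663 with no filter, and 75 and 44 with a pseudocount of 5. Genes past 1.2-fold the same way in H1299 and A549 numbered 12, and 25 with a pseudocount of 0.1, 6 with one of 5, 86 and 2 at means of at least 1 and 20, and 214 with no filter; with the pair labelled H2030 they numbered 60, and 18 with a pseudocount of 5, 202 and 7 at those means, and 351 with no filter. Lists with a median past 1.05-fold numbered 2, and 4 at a mean of at least 1. Median-of-ratios scaling and quantile normalization changed no count by more than 1.5 times. No list median past 1.05-fold and no named gene past 1.2-fold changed sign under any alternative; the cholesterol median ranged from 0.087 to 0.116, that of YAP and TAZ targets from -0.099 to -0.072 and that of ribosome biogenesis from -0.056 to -0.049.

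At the estimated depth, a gene below 20 FPKM that was higher by less than 1.2-fold lay within the central 95% of genes at its level. Without a second library per vector culture and vector cannot be told apart.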
